A study of Homo sapiens with 6 samples.

Results

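The myeloid lineage transcription factors described here are SPI1 (the gene of PU.1), CEBPA, CEBPB, CEBPD and CEBPE of the C/EBP family, GFI1, IRF8 and KLF4. These 8 genes, of 20007 protein-coding genes, were listed by name for their roles in granulocyte and monocyte development, with earlier results of these data known, and the rule used no threshold on measured values. For each one, the acetylation of histone H3 at lysine 27 (H3K27ac) was read from peak lists in a locus, defined as the gene body plus 50 kb on each side, and in a promoter window of 2500 bases on each side of the canonical start of transcription. H3K27ac marks active promoters and enhancers, and the assay was CUT&Tag. There an antibody brings a transposase to the modified histone, and the DNA around it is cut and tagged.

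The study examined what loss of ANP32B, an acidic nuclear protein that binds histones, did to H3K27ac in acute myeloid leukemia (AML) cells. Kasumi-1 is an AML line with the RUNX1::RUNX1T1 fusion, and MV4-11 is an AML line with a KMT2A fusion. The groups were Kasumi-1 NC, Kasumi-1 sh-ANP32B, MV4-11 NC and MV4-11 sh-ANP32B, with 1 deposited peak list each. The sh-ANP32B cells carried a lentiviral short hairpin RNA against ANP32B, and the NC cells, which the labels call untreated and the methods describe as carrying a control hairpin, were the control. Of the 6 samples, the other 2 were IgG libraries, 1 per line, and were not analysed here. Replicates had been merged before the peaks were called, so that no spread between replicates and no test could be given. Every difference below is between single lists, called where the ratio was at least 1.5-fold (0.58 on the log2 scale). Counts of called members are set beside the percentage of all genes or peaks that met the same rule.

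PU.1 and C/EBPα are the central factors of myeloid commitment, and each binds the promoters and enhancers of granule protein, growth factor receptor and lysosomal genes. C/EBPα drives the step from multipotent progenitor to granulocyte-monocyte progenitor, C/EBPε completes granulocyte maturation, and IRF8 and KLF4 favour monocytes, while GFI1 is a repressor that favours granulocytes. The RUNX1::RUNX1T1 protein binds RUNX motifs, many of them beside PU.1 sites, and CEBPA is among the genes it is known to repress.

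The lists held 22768 peaks in NC and 23878 in sh-ANP32B of Kasumi-1, and 24523 in NC and 22136 in sh-ANP32B of MV4-11 on chromosomes 1 to 22, X and Y. They covered 32.7, 33.7, 27.9 and 23.0 Mb in the same order. The smallest peak width in the full lists was 357, 354, 289 and 275 bases, and the smallest gap between peaks 358, 355, 290 and 276 bases. The MV4-11 lists thus keep smaller peaks and leave closer peaks apart, which limits comparisons of widths and peak numbers. The depth of the libraries is unknown, since the lists give positions and widths only, and a smaller total can come from fewer reads as well as from less acetylation. These causes cannot be told apart here. Of 6 myeloid markers, 3 had a promoter peak in each library other than MV4-11 sh-ANP32B, which had 2. Of all genes, 47.7% and 45.3% had a promoter peak in NC and sh-ANP32B of Kasumi-1, and 35.8% and 28.6% in those of MV4-11. Some of the marker peaks only reached the edge of the window, with 8 bases for PTPRC in MV4-11 sh-ANP32B. CD34 had 180 and 132 bases in NC and sh-ANP32B of Kasumi-1. None of the 3 T cell, 3 erythroid and 2 hepatocyte markers had a promoter peak in any library. Of 3 B cell markers, 2 had a promoter peak in both Kasumi-1 libraries and 1 in both MV4-11 libraries. The myeloid markers MPO in all libraries, LYZ and PTPRC in Kasumi-1, CD33 and CD34 in MV4-11, and FLT3 in MV4-11 sh-ANP32B had no promoter peak.

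The reference sequences of 5 members' promoters and of 2 distal elements are shown so that the peaks described below can be read against their letters. The promoters are those with an entry in the promoter table that could be printed, and the elements lie under a peak in all 4 libraries. The first sequences are the 250 bases upstream of the canonical start, from RefSeq on GRCh38.p14, for CEBPA (chr19:33302535-33302784, minus strand), CEBPB (chr20:50190580-50190829, plus strand), CEBPE (chr14:23119256-23119505, minus strand), GFI1 (chr1:92486926-92487175, minus strand) and KLF4 (chr9:107489770-107490019, minus strand). Capitals mark matches on either strand to 4 motifs, GAGGAA for PU.1, TTGCNNAA for C/EBP, TGTGGT for RUNX and AAATCA for GFI1.
CEBPA promoter: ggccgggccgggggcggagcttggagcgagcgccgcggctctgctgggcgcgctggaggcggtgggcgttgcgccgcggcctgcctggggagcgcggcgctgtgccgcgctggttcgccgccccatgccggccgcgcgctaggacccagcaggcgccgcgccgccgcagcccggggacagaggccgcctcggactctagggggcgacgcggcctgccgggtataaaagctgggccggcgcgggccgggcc
CEBPB promoter: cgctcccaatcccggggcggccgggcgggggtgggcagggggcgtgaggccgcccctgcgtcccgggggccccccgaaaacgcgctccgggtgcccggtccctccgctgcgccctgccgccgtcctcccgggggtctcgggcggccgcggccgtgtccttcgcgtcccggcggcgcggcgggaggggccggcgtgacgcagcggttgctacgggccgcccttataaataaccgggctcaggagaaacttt
CEBPE promoter: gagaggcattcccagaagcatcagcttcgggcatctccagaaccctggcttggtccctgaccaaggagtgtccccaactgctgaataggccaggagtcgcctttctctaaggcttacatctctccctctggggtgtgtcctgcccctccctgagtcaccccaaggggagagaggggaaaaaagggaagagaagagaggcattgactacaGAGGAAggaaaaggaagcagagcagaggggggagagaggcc
GFI1 promoter: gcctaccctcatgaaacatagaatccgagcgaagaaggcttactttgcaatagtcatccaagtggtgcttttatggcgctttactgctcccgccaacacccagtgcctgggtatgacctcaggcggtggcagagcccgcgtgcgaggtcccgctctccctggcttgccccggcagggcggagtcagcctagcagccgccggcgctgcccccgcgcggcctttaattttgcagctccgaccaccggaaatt
KLF4 promoter: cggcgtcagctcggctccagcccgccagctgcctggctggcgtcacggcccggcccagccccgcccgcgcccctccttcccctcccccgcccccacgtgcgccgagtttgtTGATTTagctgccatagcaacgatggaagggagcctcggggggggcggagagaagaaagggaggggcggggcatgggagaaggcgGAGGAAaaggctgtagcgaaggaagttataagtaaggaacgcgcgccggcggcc

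The CEBPA and CEBPB promoters were the richest in G and C of the 5, at 81.2% with 41 CpG dinucleotides and 77.6% with 38. The GFI1 promoter had 61.2% G and C with 19 CpG, and none of these 3 promoters held a match to any of the 4 motifs. The CEBPE promoter was unlike them, with 57.2% G and C, 2 CpG and 1 PU.1 match at base 210. The KLF4 promoter had 69.2% G and C, 1 PU.1 match at base 197 and 1 GFI1 match at base 112. Across 34943 promoters of the same length, 23.6% held the PU.1 letters, 9.06% the C/EBP letters, 11.0% the RUNX letters and 11.6% the GFI1 letters. A match describes the letters only and no binding was measured.

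The next pair are 300-base stretches at the middle of the interval that a distal peak covered in all 4 libraries. The CEBPA element is at chr19:33260628-33260927 (hg38, printed on the minus strand) and its middle lies 41757 bases downstream of the CEBPA start, between genes. The CEBPB element is at chr20:50221011-50221310 (hg38, plus strand), between genes, 30330 bases downstream of the CEBPB start.
CEBPA distal element: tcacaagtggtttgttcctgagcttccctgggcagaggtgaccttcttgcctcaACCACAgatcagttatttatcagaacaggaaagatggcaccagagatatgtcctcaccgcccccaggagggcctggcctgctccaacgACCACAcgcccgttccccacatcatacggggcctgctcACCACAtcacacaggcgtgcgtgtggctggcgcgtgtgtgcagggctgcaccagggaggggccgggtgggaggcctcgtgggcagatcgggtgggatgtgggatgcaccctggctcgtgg
CEBPB distal element: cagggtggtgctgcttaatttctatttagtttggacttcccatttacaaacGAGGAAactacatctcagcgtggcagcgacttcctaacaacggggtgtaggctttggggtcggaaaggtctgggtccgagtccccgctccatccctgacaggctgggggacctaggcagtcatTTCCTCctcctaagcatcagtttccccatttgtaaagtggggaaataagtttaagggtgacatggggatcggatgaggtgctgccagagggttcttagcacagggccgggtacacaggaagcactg

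The CEBPA element held 3 RUNX matches, at bases 55, 143 and 181, and no match to the other motifs. The CEBPB element held 2 PU.1 matches, at bases 52 and 175. Of 13692 stretches of 300 bases at the middle of the distal peaks of Kasumi-1 NC, 23.6% held at least 1 RUNX match and 26.7% at least 1 PU.1 match, against 10.8% for C/EBP and 11.6% for GFI1.

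Considered together, the member loci held 51, 51, 61 and 56 peaks in Kasumi-1 NC, Kasumi-1 sh-ANP32B, MV4-11 NC and MV4-11 sh-ANP32B. The median member locus had 16628.5, 16512.5, 15403.5 and 12665.5 bases under peaks, where the median of all genes was 2271, 2286, 1642 and 1109 bases. CEBPA had the most bases in each library and CEBPD had none in any. SPI1 and IRF8 followed CEBPA, with IRF8 above SPI1 in Kasumi-1 sh-ANP32B and below it in the other 3 libraries. CEBPB ranked above GFI1 in Kasumi-1 and below it in MV4-11, and CEBPE and KLF4 were the lowest of the 7 members with peaks. Without replicates, the order of neighbours carries no error.

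**Figure D1:**
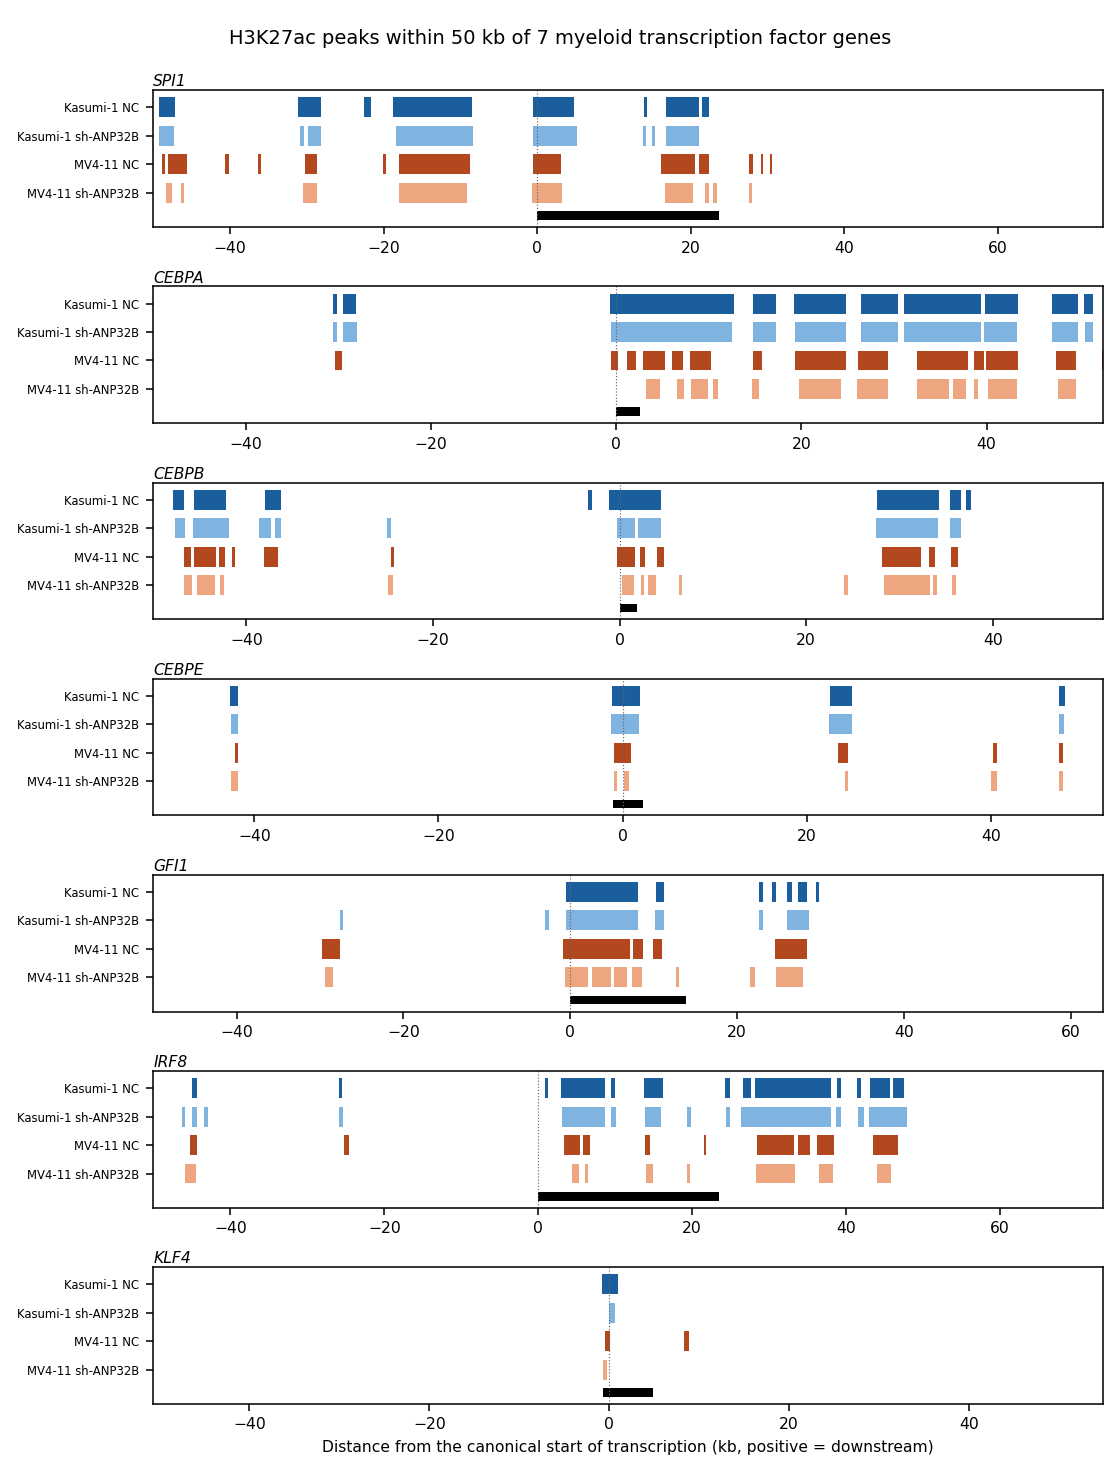
H3K27ac peaks (bars) of 4 libraries (rows) against distance from the canonical start in kb for 7 members, with the gene body as a black bar. CEBPA was covered from its start to over 12 kb downstream by 1 peak in each Kasumi-1 library. In MV4-11 that stretch held separate, narrower peaks with gaps between them, and in MV4-11 sh-ANP32B none lay over the start.

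**Figure D2:**
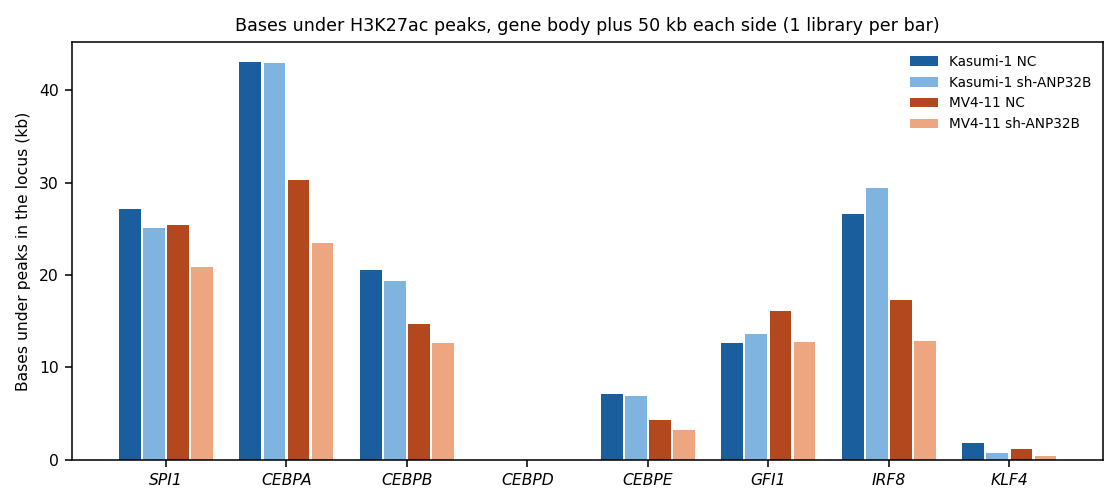
Bases under peaks in each member's locus in kb, 1 bar per library and no error bar because there is 1 list per group. CEBPA reached 43.0 kb in Kasumi-1 NC and 23.4 kb in MV4-11 sh-ANP32B, and CEBPD was at 0 in all 4 libraries.

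CEBPA, on chromosome 19 (33299934 to 33302534, minus strand), encodes C/EBPα. Its locus held 43035 bases under peaks in NC and 42916 in sh-ANP32B of Kasumi-1, and 30237 in NC and 23434 in sh-ANP32B of MV4-11. These covered 41.9%, 41.8%, 29.5% and 22.8% of the locus, which placed CEBPA above 99.6% of all genes in each library. In Kasumi-1 NC a peak of 13379 bases ran from 647 bases upstream of the start to 12731 bases downstream, over the whole single-exon gene, and was the 16th widest of the list. The peak in Kasumi-1 sh-ANP32B was 13141 bases wide and ranked 18th.

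In MV4-11 NC the same interval was broken into separate peaks, of which 755 bases lay over the start and 967 bases lay further inside the promoter window. MV4-11 sh-ANP32B had no peak in the window, and the nearest began 3276 bases downstream. The bases under peaks in the CEBPA promoter window were thus 3148, 3103, 1722 and 0. This was the only member other than IRF8 to lose its promoter peaks, and the printed CEBPA promoter lies where the 755-base peak was. The 1000 bases around the CEBPA start had 77.1% G and C, higher than 97.4% of genes. In MV4-11, 24.8% of the promoter peaks in the fifth of genes richest in G and C were lost, close to the 24.4% of all genes. A part of base composition or depth in the CEBPA difference was not tested.

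Downstream of CEBPA, the known enhancer near 42 kb, which is active in myeloid progenitors, was searched for in a window of 40 to 45 kb. A peak was there in all 4 libraries, of 3548 bases in NC and 3567 in sh-ANP32B of Kasumi-1, and 3398 in NC and 3168 in sh-ANP32B of MV4-11. Its width differed far less between libraries than the bases at the CEBPA promoter did. The 3 RUNX matches printed above lie in this peak. Other distal peaks of CEBPA, at about 22 kb downstream (5711, 5564, 5514 and 4471 bases), also kept their place in each library. The 5515-base peak of MV4-11 NC centred 35.3 kb downstream was overlapped by 2 peaks in MV4-11 sh-ANP32B.

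SPI1 encodes PU.1 and lies on chromosome 11 (47354860 to 47378547, minus strand). Its locus held 27163 bases under peaks in NC and 25137 in sh-ANP32B of Kasumi-1, and 25371 in NC and 20838 in sh-ANP32B of MV4-11, in 8, 8, 13 and 9 peaks. The SPI1 promoter window held 3084, 3042, 3008 and 3127 bases, so the libraries were nearly level there. The peak over the start was 5430 and 5754 bases wide in Kasumi-1 and 3629 and 3878 in MV4-11, and the difference lay in how far it reached downstream, into the gene.

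Upstream of SPI1, a distal element is known to drive PU.1 levels in myeloid cells. In the window from -20 to -14 kb, all 4 libraries had a wide peak whose middle fell in the antisense gene SLC39A13-AS1, of 10278 bases in NC and 10038 in sh-ANP32B of Kasumi-1, and 9215 in NC and 8862 in sh-ANP32B of MV4-11. These were the 51st, 66th, 28th and 16th widest peaks of their lists. So the peak was narrower in MV4-11 in bases and higher in the order of widths. Within the gene, a peak of 4316, 4316, 4396 and 3680 bases was also found in every library. Up to 5 of the peaks in the SPI1 locus lay at promoters of neighbours (MYBPC3, SLC39A13 and PSMC3).

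CEBPB, on chromosome 20 (50190830 to 50192668, plus strand), encodes C/EBPβ, a factor of emergency granulopoiesis and macrophages. Its locus held 20587 bases under peaks in NC and 19385 in sh-ANP32B of Kasumi-1, and 14705 in NC and 12616 in sh-ANP32B of MV4-11. The CEBPB promoter window held 3635, 2409, 2229 and 1498 bases and was lower after knockdown in both lines. In Kasumi-1 NC a 5571-base peak started 1134 bases upstream of the gene, and in Kasumi-1 sh-ANP32B it was replaced by peaks of 1891 and 2467 bases, the first starting 274 bases upstream. In MV4-11 NC the peak over the start was 1871 bases wide and began 258 bases upstream. In MV4-11 sh-ANP32B it was 1298 bases wide and began 287 bases downstream, so that the printed CEBPB promoter was under no peak. The downstream element printed above was under a peak of 6653, 6644, 4131 and 4876 bases. It was wider in sh-ANP32B than in NC of MV4-11. The CEBPB locus also takes in the promoters of its neighbours PEDS1 and PEDS1-UBE2V1. A 1584-base peak there in MV4-11 NC had no overlapping peak in MV4-11 sh-ANP32B.

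CEBPE, on chromosome 14 (23117036 to 23120256, minus strand), encodes C/EBPε, which is needed for secondary granules. Its locus held 7072 bases under peaks in NC and 6909 in sh-ANP32B of Kasumi-1, and 4302 in NC and 3251 in sh-ANP32B of MV4-11. The CEBPE promoter window held 3028, 3065, 1816 and 994 bases. In both Kasumi-1 libraries and in MV4-11 NC 1 peak ran across the start, and in MV4-11 sh-ANP32B peaks of 575 and 419 bases lay on its sides and left the start uncovered.

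CEBPD, on chromosome 8, encodes C/EBPδ and had no peak in its locus in any library. The nearest peak to its start was 131294, 136300, 126144 and 124290 bases away. The 1000 bases around the CEBPD start had 76.2% G and C, close to the 77.1% of CEBPA and the 76.0% of CEBPB, both of which had peaks.

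GFI1, on chromosome 1 (92473043 to 92486925, minus strand), was the 1 member with more bases under peaks in MV4-11 NC than in Kasumi-1 NC. Its locus held 12670 bases in NC and 13640 in sh-ANP32B of Kasumi-1, and 16102 in NC and 12715 in sh-ANP32B of MV4-11. The peak over the GFI1 start was 8637, 8648, 7952 and 2707 bases wide. The 7952-base peak of MV4-11 NC was overlapped by 3 peaks in MV4-11 sh-ANP32B, which summed to 6573 bases. A peak centred 26.5 kb downstream in MV4-11 NC was 3741 bases wide there and 3234 in MV4-11 sh-ANP32B. In Kasumi-1 NC that stretch held peaks of 1111, 624 and 460 bases, and in Kasumi-1 sh-ANP32B a peak of 2631.

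IRF8, on chromosome 16 (85899116 to 85922606, plus strand), encodes a factor of monocytes and dendritic cells. It was unlike CEBPA in layout, with little or nothing in the promoter window and wide peaks inside and downstream of the gene. Its locus held 26641 bases under peaks in NC and 29460 in sh-ANP32B of Kasumi-1, and 17247 in NC and 12840 in sh-ANP32B of MV4-11. The IRF8 promoter window held 1 peak of 357 bases in Kasumi-1 NC, the smallest width in that list, and 0 bases in the other 3 libraries. A peak inside the gene began 3035, 3057, 3348 and 4433 bases downstream of the canonical start. The annotation gives 10 coding starts for IRF8, of which 6, 6, 3 and 3 lay under a peak. In both Kasumi-1 libraries and in MV4-11 NC these included the starts 3527, 3653 and 3664 bases downstream, and in MV4-11 sh-ANP32B only the starts 14664, 14812 and 14881 bases downstream.

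Downstream of IRF8, a peak inside a long noncoding RNA gene was 9861 bases wide in NC and 11695 in sh-ANP32B of Kasumi-1, and 4864 in NC and 5013 in sh-ANP32B of MV4-11. It was the 62nd and 31st widest peak in Kasumi-1 and the 312th and 170th in MV4-11. The MV4-11 widths are those of the widest piece only. The Kasumi-1 NC peak was also overlapped by peaks of 1573 and 2106 bases in MV4-11 NC and of 1886 bases in MV4-11 sh-ANP32B. The widening in Kasumi-1 sh-ANP32B came where the 1065-base peak beside it in NC had become part of the same peak.

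KLF4, on chromosome 9 (107484852 to 107490482, minus strand), encodes a zinc finger factor of the monocyte lineage and had the fewest bases under peaks of the 7 members with peaks. Its locus held 1801 bases in NC and 663 in sh-ANP32B of Kasumi-1, and 1164 in NC and 442 in sh-ANP32B of MV4-11. The peak at the KLF4 start spanned bases -839 to 961 in Kasumi-1 NC and only -54 to 608 after knockdown. In MV4-11 its span was -523 to 55 in NC, against -670 to -229 after knockdown. In the last of these the start itself was uncovered. MV4-11 NC had a further 585-base peak 8302 bases downstream that MV4-11 sh-ANP32B did not.

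**Figure D3:**
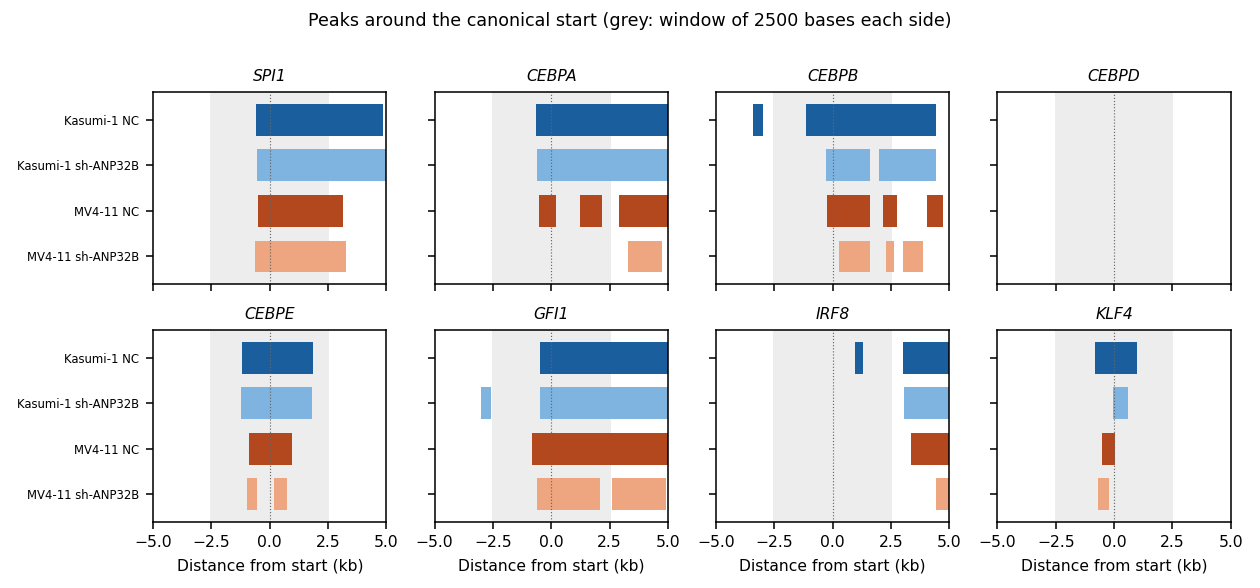
Peaks of 4 libraries (rows) within 5 kb of the canonical start of each member, with the promoter window of 2500 bases each side in grey. Within the window SPI1 was covered alike in the 4 libraries, and beyond it the SPI1 peak reached further downstream in Kasumi-1 than in MV4-11. The peaks at CEBPA were gone from the window in MV4-11 sh-ANP32B, and CEBPD was empty.

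After ANP32B knockdown in Kasumi-1, the member loci differed little from NC except that of KLF4. The log2 ratios of locus bases (sh-ANP32B over NC) were -0.11 for SPI1, -0.0040 for CEBPA, -0.087 for CEBPB, -0.034 for CEBPE, 0.11 for GFI1, 0.15 for IRF8 and -1.44 for KLF4. Their median was -0.034, and that of the 14615 genes with peaks in both libraries was 0.025. KLF4 was the 1 of 7 members lower by 1.5-fold, where 6.75% of all genes were, and 0 members were higher, where 4.70% of all genes were. In the promoter window, CEBPB, IRF8 and KLF4, 3 of 7 members, were lower, against 14.6% of all genes, and 0 were higher, against 4.86%. The IRF8 case rests on the 357-base peak, and with all of its coding starts IRF8 had a promoter peak in all 4 libraries. A promoter peak was present for 7 of 8 members in NC (47.7% of all genes) and 6 in sh-ANP32B (45.3%). IRF8 was the 1 of 7 that lost it (6.79% of all genes lost theirs), and CEBPD, the 1 member without a promoter peak in NC, gained none (1.60%).

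In MV4-11, all 7 members with peaks had fewer locus bases in sh-ANP32B than in NC, as did 77.3% of all genes. The log2 ratios were -0.28 for SPI1, -0.37 for CEBPA, -0.22 for CEBPB, -0.40 for CEBPE, -0.34 for GFI1, -0.43 for IRF8 and -1.40 for KLF4, with a median of -0.37 against -0.34 for all genes. KLF4 was the 1 of 7 members lower by 1.5-fold (37.2% of all genes) and 0 were higher (6.54%). The total under all peaks also fell, by 0.28 on the log2 scale. Relative to that total, which shifts every gene alike, the log2 ratios were -0.0060 for SPI1, -0.090 for CEBPA, 0.057 for CEBPB, -0.13 for CEBPE, -0.063 for GFI1, -0.15 for IRF8 and -1.12 for KLF4. The size of the difference depended on this scaling for each member, and its direction did for CEBPB. Locus bases include the promoters of neighbouring genes, where part of the fall at CEBPB and CEBPE lay. With only peaks outside promoter windows, CEBPE (0.50), GFI1 (0.30) and CEBPB (0.050) were higher in sh-ANP32B than in NC. The GFI1 value is not like for like, because pieces of 1584 and 2282 bases of its split start peak counted as distal in sh-ANP32B. In NC the unsplit start peak of 7952 bases counted as a promoter peak.

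In the promoter window of MV4-11, CEBPA and CEBPE, 2 of 6 members, were lower by 1.5-fold, against 45% of all genes, and 0 were higher, against 7.28%. CEBPB, with a ratio of 0.672, stood just inside the limit, and CEBPE had a ratio of 0.547. KLF4, lower over its locus, was not called in the window, with a ratio of 0.763 (442 against 579 bases). The rest of its locus difference was the lost 585-base distal peak. A promoter peak was present for 6 of 8 members in NC (35.8% of all genes) and for 5 in sh-ANP32B (28.6%). CEBPA was the 1 of 6 that lost it, where 24.4% of all genes with one did, and neither CEBPD nor IRF8 gained one (2.45%). With so few members each share moves in steps of 1 gene. The shares of members called in MV4-11 were below the shares of all genes in each of these counts of lower or lost promoters and loci. These shares are not for loci of like size, since the median locus in MV4-11 NC held 15403.5 bases for members and 1642 for all genes. By median log2 ratio the members were not above all genes, at -0.37 against -0.34 over loci and -0.39 against -0.27 in the window.

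Between the control libraries, 6 of 7 members had fewer locus bases in MV4-11 NC than in Kasumi-1 NC, and GFI1 had more. The log2 ratios (MV4-11 NC over Kasumi-1 NC) were -0.098 for SPI1, -0.51 for CEBPA, -0.49 for CEBPB, -0.72 for CEBPE, 0.35 for GFI1, -0.63 for IRF8 and -0.63 for KLF4. Their median was -0.51 against -0.54 for all genes. CEBPE, IRF8 and KLF4, 3 of 7, were lower by 1.5-fold (49.4% of all genes) and 0 were higher (15.2%). In the promoter window 5 of 7 were lower (61.9%), all but SPI1 and GFI1, and 0 were higher (5.84%). The total under peaks was lower in MV4-11 NC by a log2 ratio of -0.23, and relative to it SPI1 turned to 0.13 and GFI1 to 0.58, with the other 5 still below 0. The 2 lines differ in much beside their fusions, and cell line and library cannot be told apart. Each NC library enters 2 of the 3 comparisons, which therefore share libraries.

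**Figure D4:**
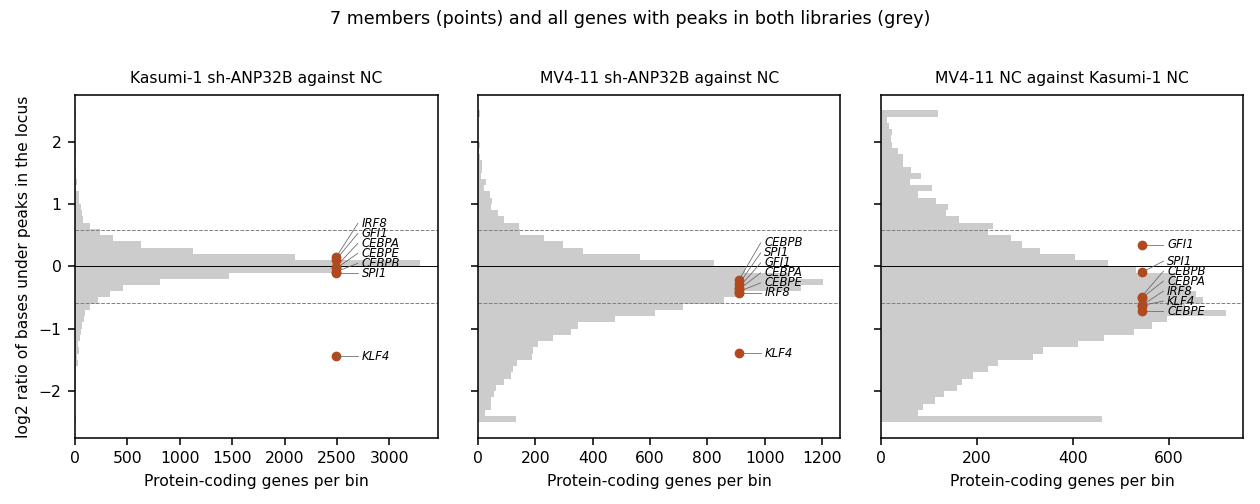
log2 ratio of locus bases for 7 members (points) and for all genes with peaks in both libraries (grey histogram, values beyond 2.5 placed in the end bins) in 3 comparisons, with dashed lines at 1.5-fold. KLF4 lies apart from the other members in both knockdown comparisons, at -1.44 in Kasumi-1 and -1.40 in MV4-11. Of all genes shown, 0.575% and 7.71% were lower than KLF4. GFI1 is the 1 member above 0 between the lines.

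Distal peaks present in only 1 library of a line were counted next. In Kasumi-1, 6 of 40 distal NC peaks of the member loci had no overlapping peak in sh-ANP32B (15.0%, Wilson 95% interval 7.06 to 29.1, counting error only), against 9.57% of all distal peaks. They were 396 to 866 bases wide, with a median of 465.5 bases, and the distal peaks that were kept had a median width of 1179.5 bases. Over all distal peaks these medians were 431 and 913 bases. In sh-ANP32B, 7 of 38 distal peaks were new (18.4%, interval 9.22 to 33.4), against 18.4% of all. In MV4-11, 13 of 47 distal NC peaks were lost (27.7%, interval 16.9 to 41.8; 29.4% of all), and 7 of 43 were new in sh-ANP32B (16.3%, interval 8.12 to 30.0; 20.8% of all). The lost peaks had a median width of 492 bases and those kept 1886.5, against 461 and 1012 over all distal peaks. SPI1 had 5 of these 13 lost peaks, each of 295 to 492 bases. The widest of the 13 were a 1573-base peak downstream of IRF8 and a 1129-base peak inside GFI1.

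Some NC peaks faced more than 1 peak after knockdown. In Kasumi-1, 3 of 51 NC peaks were overlapped by more than 1 peak of sh-ANP32B (2.81% of all peaks), 2 of them in the CEBPB locus and 1 in that of SPI1. In MV4-11, 5 of 61 were (4.81%), at GFI1, CEBPE, CEBPA, CEBPB and the PSMC3 end of the SPI1 locus. Not all of these were broken up, since the 655-base CEBPB peak of MV4-11 NC was overlapped by peaks summing to 5340 bases and the 1693-base peak of Kasumi-1 NC in that locus by peaks summing to 1859. Among peaks that matched 1 to 1, 16 of 35 in Kasumi-1 were narrower in sh-ANP32B (45.7%), with a median change of 7 bases, where 40.5% of all 18849 matched peaks were narrower with a median change of 25 bases. In MV4-11 27 of 38 were narrower (71.1%), with a median change of -269.5 bases, where 63.4% of all 15364 matched peaks were narrower with a median of -94 bases.

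To find clusters of peaks, all peaks except those lying fully within promoter windows were joined across gaps of up to 12.5 kb, and the stitched domains were ranked by summed peak width. One of the 500 highest domains touched the locus of 4 members in Kasumi-1 NC, Kasumi-1 sh-ANP32B and MV4-11 NC (SPI1, CEBPA, GFI1 and IRF8) and of 5 in MV4-11 sh-ANP32B, with CEBPB. Of all genes 7.55%, 7.24%, 5.64% and 5.56% had such a domain. CEBPA had the 2nd highest of 7694 domains in Kasumi-1 NC and the 5th of 8087 after knockdown. In MV4-11 its domain was the 7th of 9997 in NC, then the 12th of 9273 after knockdown. IRF8 ranked 36th, 33rd, 89th and 157th, SPI1 54th, 77th, 139th and 112th, and GFI1 236th, 240th, 262nd and 238th. The ranked domains did not cover the same stretch in each library. From the start, that of SPI1 spanned bases -22495 to 22305 in Kasumi-1 NC and -20013 to 3121 in MV4-11 NC. That of GFI1 spanned -834 to 10997 in MV4-11 NC and 2623 to 27914 in MV4-11 sh-ANP32B. The CEBPB domain ranked 505th, 622nd, 798th and 489th, on either side of the limit.

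**Figure D5:**
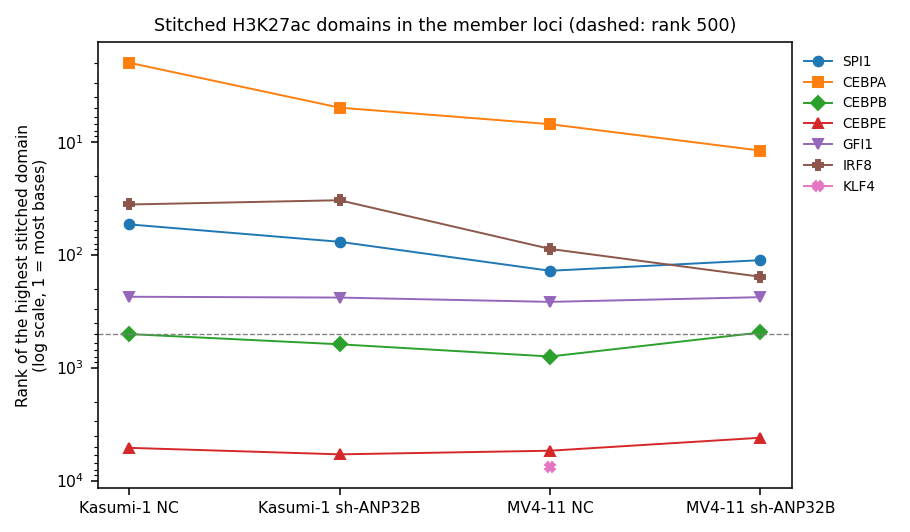
Rank of the highest stitched domain that touches each member's locus (log axis, 1 at the top) in 4 libraries, with rank 500 dashed. CEBPA stayed between rank 2 and 12, and CEBPB lay at 505 and 489 in its libraries nearest the limit.

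By the bases under promoter peaks over the 4 libraries, the genes nearest to SPI1 were RELT, CCND3 and CNTRL, with summed absolute differences of 324, 357 and 369 bases. SGMS1, PRKD2 and SSR1 were nearest to CEBPA (319, 354 and 421 bases), and each had 0 bases in MV4-11 sh-ANP32B as CEBPA did. FASTK, RCC2 and PDXK were nearest to CEBPB (435, 734 and 737 bases). IRF8 tied at 0 with 3 genes, GEMIN6, MRPS33 and C12orf29, which each had the same 357 bases in Kasumi-1 NC alone. That is the smallest width in the list, so genes with only 1 such peak tie by construction.

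Other genes of these families and pathways were counted in the same way. Of 16 relatives (other C/EBP, PU.1, GFI1, IRF and KLF genes), 12, 11, 12 and 11 had a promoter peak in the 4 libraries, where 47.7%, 45.3%, 35.8% and 28.6% of all genes did. By locus bases, 0 of 15 were lower or higher after knockdown in Kasumi-1 (6.75% and 4.70% of all genes). In MV4-11, 5 of 15 were lower and 0 higher (37.2% and 6.54%), and between the lines 7 of 15 were lower in MV4-11 NC and 0 higher (49.4% and 15.2%). Their median log2 ratios were -0.040, -0.29 and -0.56. Of 20 genes known as targets of the members, 13, 13, 13 and 10 had a promoter peak. The targets counted 0 lower and 1 higher of 20 in Kasumi-1, 2 lower and 3 higher in MV4-11, and 10 lower and 4 higher between the lines, with medians of 0.068, -0.26 and -0.64. The percentages of all genes just given apply to these counts too, and the medians of all genes were 0.025, -0.34 and -0.54. Neighbours among them share peaks, so these counts are not over separate regions.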

How the data were processed

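H3K27ac CUT&Tag was carried out in the 4 groups named above. The authors aligned the reads to hg38 with Bowtie2, removed duplicates with Picard, merged replicates with samtools and then used MACS2 for peak calling. The submitters' processing notes name Bowtie2 2.4.4 and MACS3 3.0 instead. Each deposited list gives other values than a signal, namely the position and width of each peak in bases, with no height or q-value. Use of IgG as control for calling is not given in the sources used here. Lists were joined to GENCODE 44 genes with Python 3.11.15, numpy 2.4.6, pandas 2.3.3 and pysam 0.24.0, keeping chromosomes 1 to 22, X and Y. A peak was shared, or in a window, at 1 base of overlap, and distal outside all coding promoter windows. The counting was tested on simulated data. No test between groups was run. The members, gene lists and marker lists were chosen with earlier results of these data known. Genes named were the 8 members, listed genes with promoter peaks in both libraries of 1 line and none in the other, and the 3 genes nearest in pattern. Some genes that met this rule are not reported here. Other marker genes, and neighbours of a peak, were named after their values were seen. Alternatives changed the flank, the window, the starts used, the peaks kept, the scaling, the overlap and the stitching.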

Additional observations from a re-analysis of the deposited data

Results flagged for a closer look

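In several cases the difference between sh-ANP32B and NC had the opposite sign in the 2 lines, each with 1 list per group. Whether the lines differ in these effects was not tested. In the promoter window, SPI1 changed by -42 bases in Kasumi-1 and by 119 in MV4-11, CEBPE by 37 and -822, and GFI1 by 13 and -628. Over the whole locus, GFI1 changed by 970 bases in Kasumi-1 and -3387 in MV4-11, and IRF8 by 2819 and -4407.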

How the results depend on the processing

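No paired analysis was possible because the labels give no replicate numbers and each group has 1 list, so that no replicate could be left out either. A result was taken to hold where it stayed within 1.5-fold of its value. Of 72 alternative values for the summary results, 63 held and 9 did not. The number of members with a promoter peak in MV4-11 sh-ANP32B fell to 3 with only the 10000 widest peaks and to 3 with only peaks of at least 1000 bases. With an overlap of 50% of both peaks, lost distal peaks rose to 10 in Kasumi-1 and 21 in MV4-11, and gained ones to 18 in MV4-11. With only distal peaks of at least 1000 bases, Kasumi-1 lost 0 of 20 and gained 0 of 19, and MV4-11 lost 2 of 24 and gained 0 of 20. These alternatives keep fewer peaks or ask for more overlap by construction. A value for a single member needed bases under peaks in both libraries. KLF4 therefore has none with only the 10000 widest peaks, peaks of at least 1000 bases or peaks outside promoter windows. CEBPE has none after knockdown in MV4-11 with the widest peaks or those of at least 1000 bases. Of the values for single members that could be given, 154 held and 3 did not. The 3 exceptions, with only peaks outside promoter windows, were CEBPE and GFI1 after knockdown in MV4-11 (0.50 and 0.30, from -0.40 and -0.34) and GFI1 between the lines (1.01). The cause was not tested, though for GFI1 in MV4-11 sh-ANP32B pieces of the split start peak count as distal. All 24 median log2 ratios held, but the 1.5-fold band is wider than most of them. They ranged from -0.74 to 0.012, over only 5 or 6 members where KLF4 or CEBPE had no value. The MV4-11 knockdown median of -0.37 became -0.090 divided by total bases and -0.12 outside promoter windows. The Kasumi-1 median, near 0, turned to 0.010 or 0.012 with 10 kb on each side, the widest peaks or peaks of at least 1000 bases. Unknown depth limits every width.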

Other observations

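Several genes of the fixed lists had a promoter peak in both libraries of 1 line and in neither of the other. In Kasumi-1 these were EGR2, an early growth response factor of macrophages (1051 and 1007 bases, NC and sh-ANP32B), ITGAM, the integrin of mature myeloid cells (885 and 870), and S100A8, a calcium-binding protein of neutrophils and monocytes (696 and 608). In MV4-11 they included LYZ, the lysozyme gene (683 and 324), and CYBB, the oxidase subunit of phagocytes (792 and 982). Of 10 other myeloid regulators, 8, 8, 7 and 8 had a promoter peak, where 47.7%, 45.3%, 35.8% and 28.6% of all genes did. Their counts of lower and higher locus bases were 0 and 0 of 8 in Kasumi-1, 1 and 1 of 9 in MV4-11, and 4 and 2 of 9 between the lines. Of all genes, 6.75% were lower and 4.70% higher in Kasumi-1, 37.2% and 6.54% in MV4-11, and 49.4% and 15.2% between the lines.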
